A study of Mus musculus with 16 samples.

Results

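The cytosolic ribosomal protein genes are described here across mouse stem cell cultures and embryo-like assemblies. The members are the 86 of 31663 gene entries whose symbols begin with Rpl or Rps and follow the pattern of a ribosomal protein name (Rpl or Rps, a number and at most a letter and a digit, or Rplp0, Rplp1, Rplp2 and Rpsa). They comprise 44 large-subunit genes, 31 small-subunit genes, 6 paralogs with their own symbols (Rpl3l, Rpl7l1, Rpl10l, Rpl22l1, Rpl39l and Rps27l) and 5 symbols that RefSeq lists as pseudogenes (Rps3a2, Rps3a3, Rps4l, Rps12l1 and Rpl6l). Of these, 85 had at least 1 FPKM in at least 2 libraries and were tested. FPKM counts fragments relative to a transcript's length and a library's mapped total. A narrower set of 83 had at least 5 FPKM in every library, and the 3 that did not were Rpl3l, Rpl10l and Rpl39l.

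RNA from 16 Smart-seq2 libraries, 2 for each of 8 groups, was sequenced. Induced pluripotent stem cells carrying GFP (iPSC) and trophectoderm stem cells carrying RFP (TSC, named TSCC in the labels) were grown alone, or mixed, after which they formed structures with a green and a red side. All 8 groups had 5% Matrigel as substrate and FGF4 at 12.5 ng/ml with heparin at 500 ng/ml in the medium. During the last 24 hours 4 of the groups received BMP4, whose dose the labels used here do not state, and 4 did not. On day 3 a single colony, or 1 side of a single structure separated by hand under a fluorescence stereomicroscope, was lysed for each library. The 2 cell types grown alone are called iPSC alone and TSC alone, the 2 sides of a structure are called the assembled iPSC part and assembled TSC part, and BMP4 is named where it was given. Separate cultures are not stated for the 2 libraries of a group, so a p-value here covers the spread between libraries, which may be technical.

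Ribosomal proteins and ribosomal RNA together build the small and large subunits of the cytosolic ribosome, and most core proteins are needed in about equal number per ribosome. Their mRNAs are among the most abundant in dividing cells, and they typically begin with a C followed by a run of pyrimidines, the terminal oligopyrimidine (TOP) tract, through which mTORC1 and LARP1 control their translation and stability. Pluripotent cells and trophoblast stem cells both proliferate rapidly and make many ribosomes.

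The sequences around annotated transcription starts of members that the results turn on are shown to place the tract. Each runs 5′ to 3′ on the gene's strand and covers 15 bases on either side of the start, from RefSeq on GRCm38.p6. The authors' notes name the builds mm9 and hg19, so these coordinates belong to RefSeq only. Capitals mark a C followed by at least 4 bases that are C or T, beginning within 5 bases of the start. The first 3 have the tract and behaved differently from each other. The next is the coding member that differed most between the lineages, among those with at least 5 FPKM in every library. The last is the stalk protein that differed in the opposite direction.
Rps27 (chr3:90213634-90213663, minus strand): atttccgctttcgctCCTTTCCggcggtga
Rpl38 (chr11:114668565-114668594, plus strand): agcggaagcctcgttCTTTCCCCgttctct
Rpl39 (chrX:37085208-37085237, minus strand): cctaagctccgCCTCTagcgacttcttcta
Rpl26 (chr11:68901551-68901580, plus strand): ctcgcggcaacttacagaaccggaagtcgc
Rplp0 (chr5:115559452-115559481, plus strand): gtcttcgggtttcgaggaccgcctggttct
Of the 86 members, 61 had a start in the RefSeq table. A tract beginning exactly at the start was present in 13 of the 61 (21.3%) against 3.01% of 27025 genes, and one within 5 bases in 29 (47.5%) against 21.2%. The letters CCGGAAG, sought on both strands of the 300 bases around the start, occurred in 26 members (42.6%) against 9.93% of genes. They are also visible in the Rpl26 window, read along the strand shown. These matches are descriptions of letters, and annotated starts can differ from the starts used in the cells.

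The libraries were first compared with their labels. Pou5f1, which defines pluripotent cells, was at 49.5 to 326 FPKM in the 8 libraries of iPSC origin and at 0.0335 to 13.2 FPKM in the 8 of TSC origin. The trophectoderm keratin Krt8 was at 2932 and 1367 FPKM in TSC alone against 96.9 and 58.1 in iPSC alone, but the TSC-defining Cdx2 was at 0.00 and 3.89 FPKM and Eomes at 0.22 and 0.08 FPKM there, and Esrrb at 0.00 and 0.14 FPKM. Replicate 2 of the assembled TSC part held more Pou5f1 than replicate 1 (13.2 against 2.33 FPKM), though the 10 pluripotency markers summed to 678 against 785 FPKM. In the BMP4-treated assembled iPSC part replicate 2 held more of the trophoblast gene Elf5 than replicate 1 (50.4 against 0.19 FPKM). The 13 trophoblast markers summed to 623 against 546 FPKM there, and the pluripotency markers to 963 against 416 FPKM. By these single genes, and not by the sums, the 2 are called libraries that hold RNA of the other lineage. Later uses of that name rest on these single genes only. Results that use these 2 libraries are also given without them where a count moves. Fibroblast markers summed to at most 3.49 FPKM and primitive endoderm markers to at most 10.6 FPKM. Summed FPKM per library was 666077 to 947859, the share of mitochondrially encoded genes 0.598% to 7.81%, and the depth relative to replicate 1 of iPSC alone 0.418 to 1.32. Read totals were not recovered, so values carry no counting interval.

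Ribosomal protein genes took between 15.6% and 30.6% of all FPKM in a library. The share was 22.7% and 22.3% in the 2 libraries of iPSC alone, and 15.6% and 15.8% in TSC alone. It was 30.6% and 29.6% in the assembled iPSC part and 26.2% and 26.5% in the TSC part. Both assembled groups therefore lay above their counterparts cultured alone without overlap, and TSC alone was the lowest of the 8 groups. With BMP4 the share was 23.8% and 21.6% in iPSC alone, 24.3% and 19.0% in TSC alone, 26.6% and 28.4% in the assembled iPSC part, and 24.5% and 25.1% in the assembled TSC part. The level of the median member followed the same order, from 1137 ± 134 FPKM in TSC alone through 1781 ± 3.87 in iPSC alone and 2202 ± 77.6 in the assembled TSC part to 2799 ± 52.7 in the assembled iPSC part (SD, n = 2). In bulk samples such as these, fewer cells of a type and less RNA per cell cannot be told apart.

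Other library measures also differed between the groups. The mitochondrially encoded share was 7.81% and 4.57% in TSC alone, 3.51% and 3.60% in iPSC alone, 2.07% and 0.684% in the assembled iPSC part and 0.871% and 0.598% in the assembled TSC part. With BMP4 it was 1.77% and 2.39% in iPSC alone, 1.29% and 3.53% in TSC alone, 1.56% and 1.52% in the assembled iPSC part and 6.48% and 3.62% in the assembled TSC part, so it did not follow the ribosomal share in every group. Summed FPKM was 666077 and 764532 in TSC alone and 866759 and 947859 in the assembled iPSC part. Predicted gene names (Gm and a number) held 6.64% and 6.13% of FPKM in TSC alone and 9.78% and 13.3% in the assembled iPSC part. The part of these measures in the differences of the ribosomal protein genes was not tested.

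**Figure D1:**
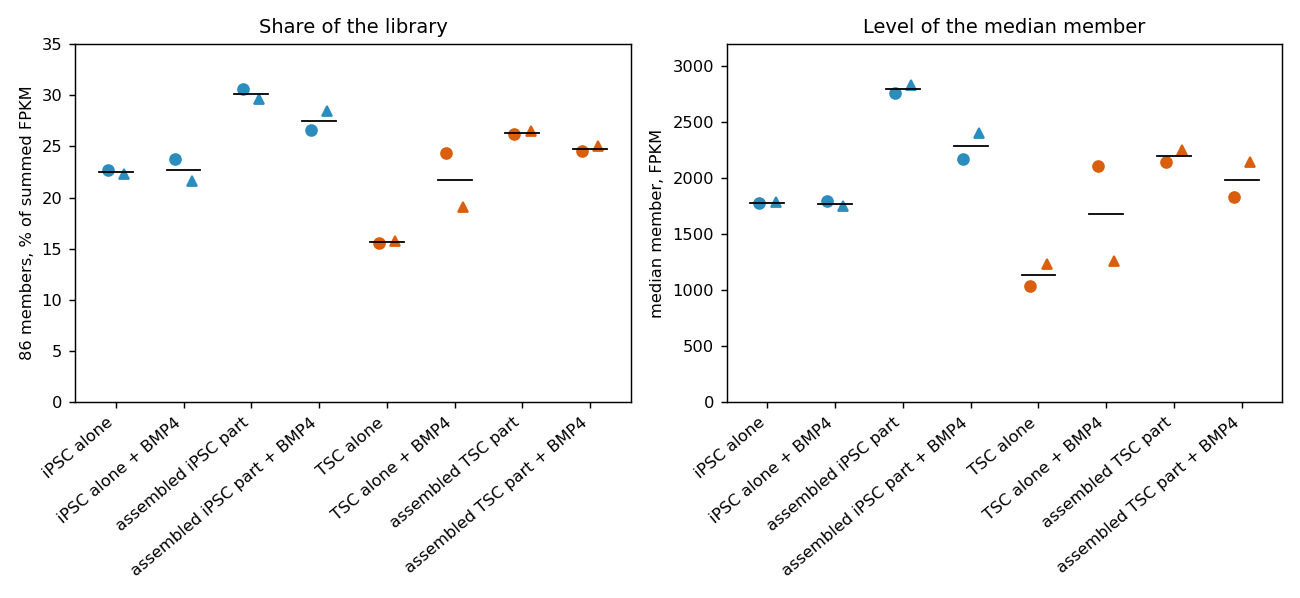
Share of summed FPKM taken by the 86 ribosomal protein genes (left, %) and FPKM of the median member (right) in each of the 8 groups. Circles are replicate 1, triangles replicate 2 and lines the group mean, with iPSC origin in blue and TSC origin in orange. TSC alone is lowest at 15.6% and 15.8%, and the assembled iPSC part is highest at 30.6% and 29.6%.

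Levels per length differed widely between members. Averaged over the 8 groups, Rpl41, the shortest ribosomal protein, had 6689 FPKM, Rpl32 had 6396 and Rplp1, an acidic protein of the stalk that recruits translation factors, had 6174. Rps29 followed with 6009 and Rps27 with 5566 FPKM. Of the 83 members with at least 5 FPKM in every library, the assembled iPSC part was the highest group for 56, the assembled TSC part for 18, iPSC alone with BMP4 for 5, iPSC alone for 3 and the assembled TSC part with BMP4 for 1. TSC alone was the lowest group for 76. Rpl41 showed this common order with 5927 and 5316 FPKM in iPSC alone, 3807 and 3670 in TSC alone, 10862 and 11834 in the assembled iPSC part and 7318 and 7518 in the assembled TSC part. No 2 of these 4 groups overlapped.

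Most members rose and fell together across the 16 libraries. The correlation of a member with the median member on the log2 scale, a description over libraries that share depth and composition, had a median of 0.898 and exceeded 0.8 for 61 of 83 members. It was negative for 4, namely Rps3a3 (-0.33), Rps4l (-0.18), Rpl26 (-0.09) and Rps3a2 (-0.03). The Rps symbols among them are pseudogene symbols, while Rpl26 codes for a large-subunit protein near the exit tunnel. Over the 8 group means, the SD of log2(FPKM + 1) was smallest for Rpl4 (0.21), Rps3 (0.25) and Rps18 (0.28), and largest for Rps3a3 (2.16), Rpl26 (1.13), Rps12l1 (0.79), Rpl29 (0.78) and Rpl22l1 (0.73). Rpl4 had 2136 and 2315 FPKM in iPSC alone, 1257 and 1563 in TSC alone, 1928 and 1984 in the assembled iPSC part and 1719 and 1662 in the assembled TSC part, so its 2 assembled groups lay between the 2 groups cultured alone.

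**Figure D2:**
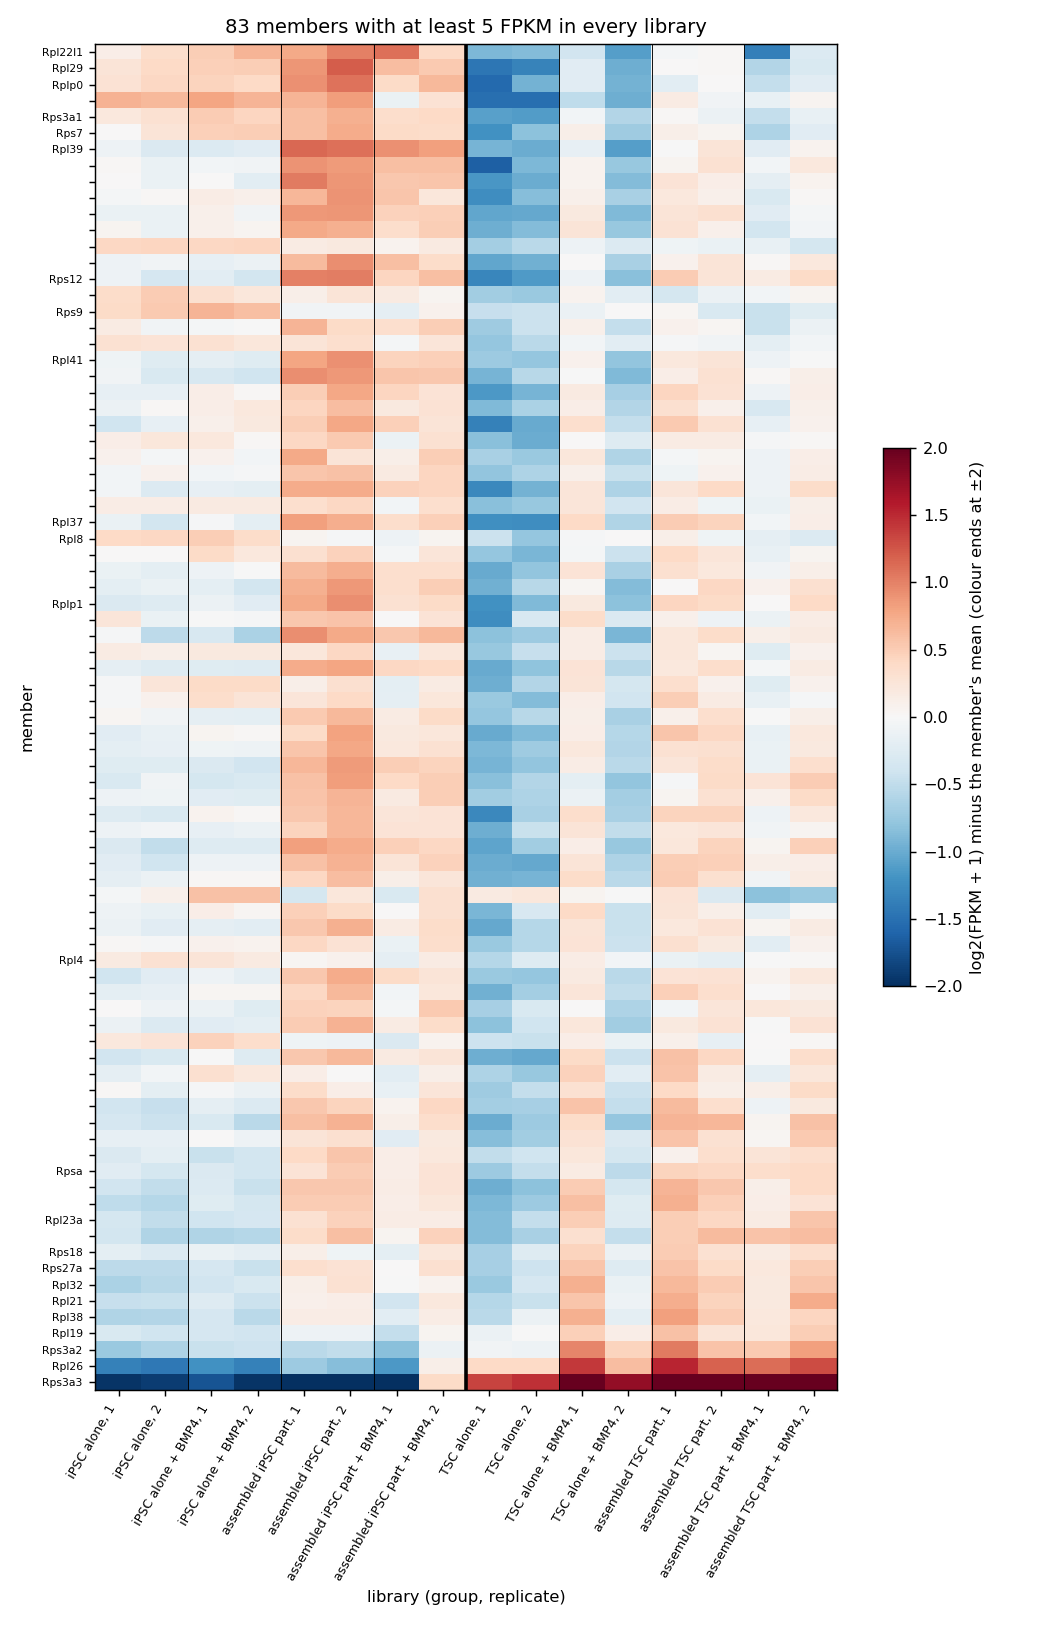
Level of each of the 83 members (rows) in each library (columns), as log2(FPKM + 1) minus the member's mean over libraries, ordered by the difference between TSC and iPSC origin relative to the median member, with some of the members described in the text labelled. The thick line divides iPSC origin (left) from TSC origin (right). Most rows are red in the 2 libraries of the assembled iPSC part and blue in TSC alone, while Rps3a3 and Rpl26 at the bottom are blue on the left and red on the right.

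TSC alone was compared with iPSC alone to ask how the ribosomal protein genes differ between the 2 cell lines. In limma with Benjamini-Hochberg adjustment over all genes and a threshold of 0.05, 43 of 85 members were lower in TSC and 2 were higher, against 20.2% of all 13406 genes tested that were lower and 16.2% that were higher. The median log2 difference was -0.68 over the members and -0.11 over all genes. Both subunits were affected, with 20 of 44 large-subunit and 18 of 31 small-subunit genes lower. Rplp0, the base of the stalk, had 1004 and 1532 FPKM in TSC alone and 3611 and 3956 in iPSC alone. It differed by -1.61 ± 0.26 on the log2 scale (SE, limma adjusted p = 0.000551), and its libraries did not overlap. Rpl29, a basic large-subunit protein, had 440 and 474 FPKM against 1432 and 1591, a log2 difference of -1.72 ± 0.23 (limma adjusted p = 0.000161). Rps27, a zinc-finger protein of the small subunit, had 1640 and 2742 FPKM against 5191 and 4657, a log2 difference of -1.21 ± 0.29 (limma adjusted p = 0.00539). The pseudogene symbol Rps12l1 had 6.42 and 6.41 FPKM against 33 and 32.1, a log2 difference of -2.18 ± 0.23 (limma adjusted p = 3.48e-05).

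The 2 members that were higher in TSC alone were Rpl26 and Rps3a3. Rpl26 had 2245 and 2252 FPKM in TSC alone and 665 and 629 in iPSC alone, a log2 difference of 1.80 ± 0.35 (limma adjusted p = 0.00159). In all, 74 of 85 members were lower in TSC alone without overlap, against 38.2% of all genes. Rpl38, a large-subunit protein linked to selective translation of Hox mRNAs, had 1974 and 2666 FPKM in TSC alone and 1895 and 1921 in iPSC alone, and its log2 difference of 0.27 ± 0.28 did not pass (limma adjusted p = 0.488). Leaving out 1 library of the groups compared changed the count, to 21 without replicate 1 of iPSC alone, 23 without its replicate 2, 22 without replicate 1 and 33 without replicate 2 of TSC alone.

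In the assembled structures fewer members passed. Of 85 members, 4 were lower and 3 higher in the TSC part than in the iPSC part, against 5.89% of all genes lower and 11.1% higher. The members' median log2 difference was -0.31 and that of all genes 0.12. The lower ones were Rplp0, Rpl29, Rpl39 and Rps3a1. Rplp0 had 2565 and 2962 FPKM in the TSC part and 5555 and 6317 in the iPSC part, a log2 difference of -1.10 ± 0.26 (limma adjusted p = 0.0128). Rpl39, a very small protein that lines the exit tunnel, had 1242 and 1500 FPKM against 2769 and 2670, a log2 difference of -0.99 ± 0.26 (limma adjusted p = 0.0195). Libraries of the 2 parts did not overlap for either gene. The count depended on scale, for members and for all genes. After upper quartile rescaling, which sets the 75th percentile of tested genes equal between libraries, 3 members were higher and 17 lower. After quantile normalization 6 were higher and 9 lower. Of all 13406 genes, 1099 were higher and 1290 lower after the first, and 1273 and 1180 after the second. As deposited these were 1482 and 789. Leaving out 1 of the 4 libraries compared gave 2 to 7 calls, namely 2 when replicate 1 of the TSC part was dropped, and 4 or 3 when replicate 1 or 2 of the iPSC part was. Without either library of TSC alone with BMP4, which enters only the shared estimate of spread, 3 members were higher and 17 lower.

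**Figure D3:**
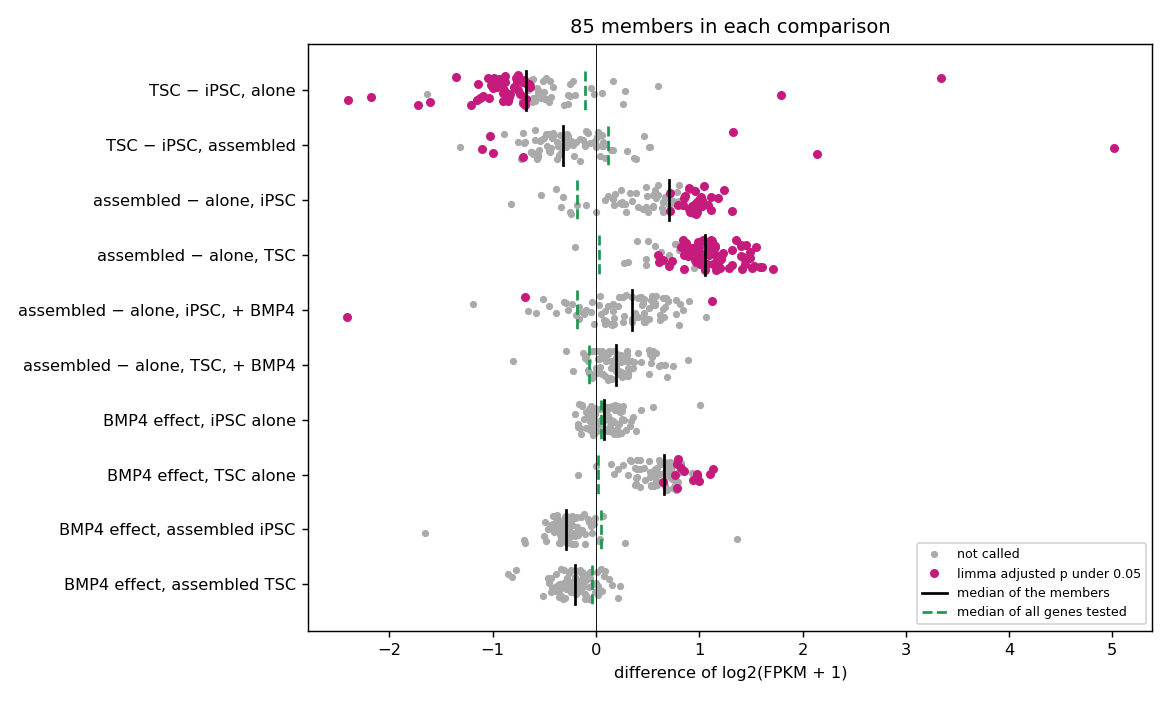
Difference of log2(FPKM + 1) for each of the 85 members tested (points) in 10 comparisons (rows). Magenta points passed limma at an adjusted p under 0.05, black lines are the median of the members and dashed green lines the median of all 13406 genes tested. In the 2 comparisons of assembled with lone cells without BMP4 the median of the members lies to the right of the median of all genes, at 0.71 in iPSC and 1.06 in TSC.

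A smaller set departed from the common course by lineage. Each member's log2 level was set relative to the median member of its library, and 11 of 83 members were then higher in all 8 libraries of TSC origin than in all 8 of iPSC origin, while 5 were lower. Among all genes on the same scale, 6.18% were higher and 1.98% lower. The median member was itself lower in TSC alone than in iPSC alone, and on this scale that raises other genes. These shares are therefore not an independent background. The higher ones were Rps3a3 (by 4.28), Rpl26 (2.31), Rps3a2 (1.38), Rpl19 (0.83), Rpl38 (0.78), Rpl21 (0.71), Rpl32 (0.67), Rps27a (0.54), Rps18 (0.50), Rpl23a (0.45) and Rpsa (0.33). The lower ones were Rpl22l1 (-0.90), Rpl29 (-0.89), Rplp0 (-0.82), Rps3a1 (-0.56) and Rps7 (-0.50). These 2 lists were read from the values themselves. Large-subunit genes held 49.9% to 51.6% of the members' FPKM in the 8 libraries of iPSC origin and 52.4% to 54.1% in the 8 of TSC origin, and small-subunit genes 45.8% to 46.9% and 43.3% to 44.5%. Neither pair of ranges overlapped. Single genes weigh on these sums, among them Rpl26 with 629 to 1856 FPKM in iPSC origin and 2245 to 4882 FPKM in TSC origin. The part of Rpl26 in the gap between the ranges was not tested, so a difference of the whole large subunit is not shown.

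Rpl26 showed the largest lineage difference among coding members with at least 5 FPKM in every library. It had 665 and 629 FPKM in iPSC alone, 733 and 668 with BMP4, 1024 and 946 in the assembled iPSC part, and 771 and 1856 in that part with BMP4. In TSC origin it had 2245 and 2252 FPKM alone, 4557 and 2629 with BMP4, 4882 and 3847 in the assembled part and 3708 and 4221 in that part with BMP4. The highest iPSC library, 1856 FPKM, was replicate 2 of the BMP4-treated assembled iPSC part, the one with more Elf5, and it still lay below every TSC library. Between the assembled parts the log2 difference was 2.14 ± 0.35 (limma adjusted p = 0.00176). The 3 entries Rpl26-ps2, Rpl26-ps4 and Rpl26-ps5 reached at most 1.5 FPKM.

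The Rps3a symbols split differently by lineage. Rps3a1 codes for a small-subunit protein, and Rps3a2 and Rps3a3 name copies that RefSeq lists as pseudogenes. How reads were divided between such similar copies is not stated, and their separate values are uncertain. Rps3a3 had 9.75 to 28.1 FPKM in 7 of the 8 libraries of iPSC origin, 125 FPKM in replicate 2 of the BMP4-treated assembled iPSC part, and 246 to 527 FPKM in the 8 of TSC origin. Its share of the 3 symbols' FPKM was 0.383% to 1.02% in those 7 libraries, 4.35% in the other iPSC library and 15.4% to 18.4% in TSC origin. The share of Rps3a2 was 8.16% to 12.1% in iPSC origin and 21.3% to 25.0% in TSC origin. Within iPSC origin the share of Rps3a3 was 0.866% to 1.02% in the 4 libraries of cells alone and 0.383% to 0.470% in 3 of the 4 assembled ones. The 3 symbols' sum ran from 1444 FPKM in TSC alone to 3249 FPKM in the assembled iPSC part. Between the assembled parts the log2 difference was 5.02 ± 0.74 for Rps3a3 and 1.32 ± 0.26 for Rps3a2, and -0.71 ± 0.21 for Rps3a1 (limma adjusted p = 0.00108, 0.00465 and 0.0321).

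**Figure D4:**
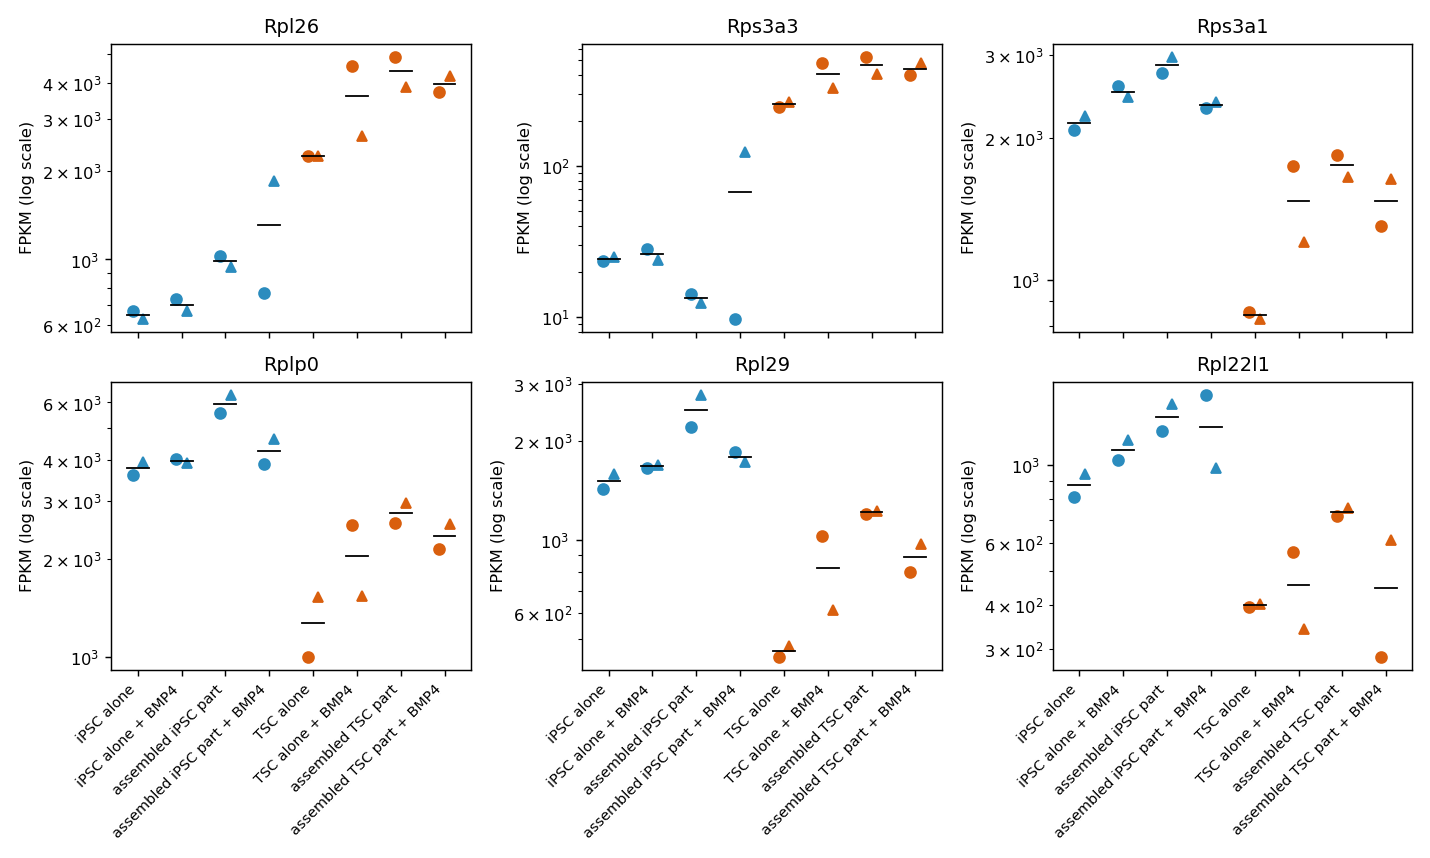
FPKM (log axis) of 6 members that differed by lineage in each of the 8 groups. Circles are replicate 1, triangles replicate 2 and lines the group mean, with iPSC origin in blue and TSC origin in orange. Rpl26 and Rps3a3 are higher in TSC origin, at 2245 to 4882 and 246 to 527 FPKM, and Rps3a1, Rplp0, Rpl29 and Rpl22l1 tend to be lower there.

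The assembled iPSC part was compared with iPSC alone to ask what assembly with TSC changes. Of 85 members, 29 were higher in the assembled part and 0 lower, against 2.08% of all genes higher and 9.74% lower, and 51 members had an unadjusted limma p under 0.05. They were 17 of 44 large-subunit and 12 of 31 small-subunit genes, with 0 of the 5 tested paralogs and 0 of 5 pseudogene symbols. The members' median log2 difference was 0.71 while that of all genes was -0.19, so that members stood 0.90 above the median gene. Rpl39 had 2769 and 2670 FPKM in the assembled part and 1159 and 1021 alone, a log2 difference of 1.32 ± 0.26 (limma adjusted p = 0.00933). Rps12, a small-subunit protein at the beak, had 3537 and 3598 FPKM against 1641 and 1393, a log2 difference of 1.24 ± 0.24 (limma adjusted p = 0.00865). Rps29 (1.18), Rps15a (1.12) and the stalk protein Rplp1 (1.12) followed. The libraries of the 2 groups did not overlap for these 5 genes. In all, 73 of 85 members were higher without overlap, against 22.4% of all genes.

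This count rested on the libraries and on the scale. With 1 library of the groups compared left out, a group held a single library, and calls were lost over all genes as well as over members. The members' median log2 difference then stayed between 0.63 and 0.77. Without either library of TSC alone with BMP4, which enters only the shared estimate of spread, 49 were higher and 0 lower. After quantile normalization, 10 members were higher and 5 lower (median 0.26, all genes 0.00073), and after upper quartile rescaling 51 were higher and 0 lower (median 1.03, all genes 0.02). Of all 13406 genes, 577 were higher and 780 lower after the first, and 774 and 713 after the second. As deposited these were 279 and 1306. Rps9, Rps3, Rps2 and Rpl4 were among those that fell under quantile normalization, named here after their values were seen. Rps9, a core small-subunit protein that binds early in assembly, had 1766 and 1770 FPKM after assembly and 2436 and 2667 FPKM alone. Its log2 difference was -0.53 ± 0.19 as deposited (limma adjusted p = 0.0841) and -0.90 ± 0.19 after quantile normalization (limma adjusted p = 0.0169).

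In TSC, most members differed between assembled and lone cells. Of 85 members, 68 were higher in the assembled TSC part than in TSC alone and 0 lower, against 9.01% of all genes higher and 10.2% lower. The 68 were 39 of 44 large-subunit genes, 27 of 31 small-subunit genes and 2 of 5 pseudogene symbols, with 0 of 5 paralogs. The members' median log2 difference was 1.06 and that of all genes 0.03, and 83 of 85 members were higher without overlap, against 28.6% of all genes. Rpl37, a zinc-binding large-subunit protein, had 1112 and 1061 FPKM in the assembled part and 332 and 328 alone, a log2 difference of 1.72 ± 0.26 (limma adjusted p = 0.00129). Rps12 had 2501 and 2116 FPKM against 712 and 802, a log2 difference of 1.61 ± 0.24 (limma adjusted p = 0.00102). Rpl22, an RNA-binding large-subunit protein, had 1952 and 1670 FPKM against 534 and 677, a log2 difference of 1.59 ± 0.26 (limma adjusted p = 0.00187). Rpl12, near the stalk base, followed with a log2 difference of 1.53, and the pseudogene symbol Rps12l1 with 1.55.

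The members' median with assembly in TSC was 0.94 to 1.16 when 1 library was left out, and 0.59 and 1.16 under the 2 other scalings. Fewer members passed without replicate 1 of TSC alone (38), without replicate 1 (33) or replicate 2 (42) of the assembled part, and without both libraries that hold RNA of the other lineage (38). Without replicate 2 of TSC alone 58 passed. Along the same comparison, 7 of 13 trophoblast markers were lower and 3 higher, and 3 of 10 pluripotency markers were higher. The trophoblast markers summed to 7200 and 4098 FPKM in TSC alone and to 1839 and 1719 FPKM in the assembled part, and the part of this change in the ribosomal protein genes was not tested.

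The difference between the 2 assembly effects was tested as an interaction. Only 2 of 85 members passed, both with a larger effect in TSC, against 3.28% of all genes with a larger and 1.68% with a smaller effect in TSC. Rpl8, a large-subunit protein near the peptidyl transferase centre, had 1469 and 1267 FPKM in the assembled TSC part against 1007 and 792 in TSC alone, and 1410 and 1322 FPKM in the assembled iPSC part against 1783 and 1793 in iPSC alone. The 2 assembly effects on Rpl8 thus had opposite signs and differed by 0.999 ± 0.257 on the log2 scale (limma adjusted p = 0.0443). For Rps12l1 the effects differed by 1.47 ± 0.33 (limma adjusted p = 0.0261). The members' median difference between the effects was 0.40, that of all genes 0.24, and after upper quartile rescaling 0 members passed with 3 at an unadjusted limma p under 0.05. After quantile normalization 9 passed, all with a larger effect in TSC, and 35 had an unadjusted limma p under 0.05. Of all 13406 genes, 328 then had a larger and 418 a smaller effect in TSC. The medians were then 0.40 for members and 0.02 for all genes. No member passed without either library of iPSC alone, either library of the assembled iPSC part or replicate 1 of the assembled TSC part. Without replicate 2 of TSC alone or of the assembled TSC part 1 passed, as without either library of iPSC alone with BMP4 or of the assembled TSC part with BMP4.

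BMP4 was compared with no BMP4 in each of the 4 settings. In TSC alone 13 of 85 members were higher with BMP4 and 0 lower, against 6.39% of all genes higher and 5.74% lower, and the members' median log2 difference was 0.66 with 0.02 for all genes. Rpl37 had 1029 and 513 FPKM with BMP4 and 332 and 328 without, a log2 difference of 1.14 ± 0.26 (limma adjusted p = 0.0158). Rpl22 had 1722 and 971 FPKM against 534 and 677, a log2 difference of 1.10 ± 0.26 (limma adjusted p = 0.0172). The groups did not overlap for either gene, and Rpl37a (0.996), Rpl31 (0.98) and Rpl27a (0.97) followed. The 2 libraries with BMP4 lay far apart, with median members of 2108 and 1259 FPKM.

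The count in TSC alone rested on those libraries. Without replicate 1 with BMP4, 0 members passed and the median fell to 0.31, and without replicate 2 with BMP4, 68 passed and the median was 1.01. Without replicate 1 or 2 of TSC alone, 2 and 5 passed. Without any 1 library of iPSC alone, iPSC alone with BMP4 or the assembled iPSC part 7 passed, and with the replicate number as a block 7 passed. Trophoblast markers summed to 7200 and 4098 FPKM without and 1662 and 1749 FPKM with BMP4, with 3 of 13 higher and 3 lower. Both tested primitive endoderm markers of 6 rose. All 6 summed to 2.04 and 0.610 FPKM without and 7.92 and 10.6 FPKM with BMP4. The part of the trophoblast and primitive endoderm markers in the result was not tested.

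In the other 3 settings limma called 0 members. Among members 1 had an unadjusted p under 0.05 in iPSC alone, 2 in the assembled iPSC part and 2 in the assembled TSC part, where 0.0597%, 0.00746% and 0.5% of all genes were called. The members' median log2 difference was 0.08 in iPSC alone (-0.05 after upper quartile rescaling), -0.29 in the assembled iPSC part and -0.20 in the assembled TSC part. The pseudogene symbol Rps4l had 395 and 414 FPKM in the assembled TSC part with BMP4 and 840 and 571 without, a log2 difference of -0.77 ± 0.25 (limma adjusted p = 0.292). The paralog Rpl22l1 had 285 and 612 FPKM against 719 and 756 there, a log2 difference of -0.82 ± 0.34 (limma adjusted p = 0.479). Neither passed, although their libraries did not overlap.

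With BMP4 present, few members passed between assembled and lone cells. In iPSC, Rpl39 was higher in the assembled part and Rps9 and Rpl39l were lower, that is 1 and 2 of 85 members against 0.88% and 4.84% of all genes. Rpl39 had 2361 and 2210 FPKM against 1026 and 1071, a log2 difference of 1.12 ± 0.26 (limma adjusted p = 0.0322). Rps9 had 1643 and 1977 FPKM against 2992 and 2820, a log2 difference of -0.69 ± 0.19 (limma adjusted p = 0.0499). Rpl39l was near the floor, at 0 and 0.38 FPKM against 2.67 and 9.67. Its value of 0 came from the library of lowest relative depth (0.418). The split turned with scale, to 6 higher and 3 lower after quantile normalization and 7 higher and 0 lower after upper quartile rescaling. Of all 13406 genes, 244 were higher and 180 lower after the first, and 217 and 97 after the second. As deposited these were 118 and 649. Rpl39, Rps9 and Rpl39l each missed the threshold when any 1 of the 4 libraries compared was left out. The members' median log2 difference was 0.35, and 0.28 without the library with more Elf5, replicate 2 of the BMP4-treated assembled part. Without its replicate 1, or without 1 library of the assembled iPSC part or of the assembled TSC part with BMP4, 1 was called, and without either library of TSC alone with BMP4 15 were higher and 2 lower. In TSC, limma called 0 members with 8 at an unadjusted p under 0.05 and 0.298% of all genes called, and without replicate 1 of TSC alone with BMP4 it called 10. Whether BMP4 changed the effect of assembly was not tested.

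Short members had a higher median than long ones in the comparison of assembled with lone iPSC. The transcript length of members was 714 bases in the median, against 1795 for the other genes tested, from GENCODE by symbol. In iPSC the 42 shorter members had a median log2 difference of 0.82 and the 41 longer ones 0.55, with a Spearman correlation of -0.28 between length and difference. In TSC the medians were 1.13 and 0.94 with a correlation of -0.28. Among the other genes the correlation was -0.10 in iPSC and -0.20 in TSC, and with BMP4 in TSC alone it was -0.18. These are correlations across genes, which are not independent replicates, and the part of length in the differences was not tested. Relative to the median member, Rps12, Rps29 and Rplp1 were higher in all 8 libraries of assembled cells than in all 8 of cells alone (by 0.57, 0.39 and 0.37), against 0.0448% of all genes, and 0 members were lower, against 4.64%. The median member itself rose with assembly, and on this scale its rise lowers other genes. These shares of all genes are therefore not an independent background.

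**Figure D5:**
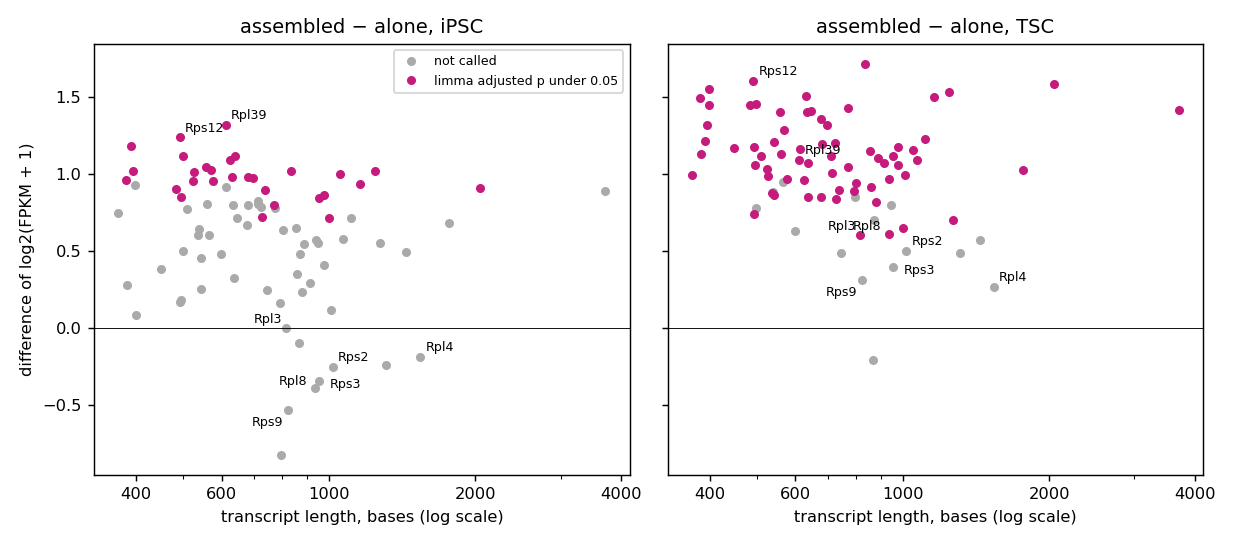
Difference of log2(FPKM + 1) between assembled and lone cells (vertical axis) against transcript length in bases (log axis) for the 83 members with at least 5 FPKM in every library. Magenta points passed limma at an adjusted p under 0.05. In iPSC (left) the members below 0 include Rps9, Rpl8, Rps3, Rps2 and Rpl4, and in TSC (right) all these lie above 0.

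The stalk proteins had unequal log2 differences. Rplp1 and Rplp2, which bind Rplp0 as dimers, had log2 differences between TSC and iPSC alone of -0.77 ± 0.28 and -0.85 ± 0.20, while Rplp0 had -1.61 ± 0.26 (limma adjusted p = 0.0468, 0.00516 and 0.000551). Rplp2 had 3266 and 2933 FPKM in the assembled TSC part and 3093 and 3425 in the assembled iPSC part. These overlapped, whereas the libraries of Rplp0 did not. The difference between these genes was not tested.

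Paralogs and their parent genes had very different levels. Rpl3l, a striated muscle paralog of Rpl3, was listed at 0 in 13 libraries and reached 0.44 FPKM, while Rpl3 had 580 to 1254 FPKM. Rpl10l, a testis paralog of Rpl10, was listed at 0 in both libraries of TSC alone and in replicate 1 of the BMP4-treated assembled iPSC part, and reached 6.62 FPKM in iPSC alone with BMP4. Rpl39l, a germline paralog of Rpl39, reached 9.67 FPKM in the same group and was listed at 0 in the 4 libraries of TSC alone without and with BMP4. By contrast Rps27l, a paralog of Rps27 induced by p53, had 1260 to 4410 FPKM, of the same order as Rps27 with 1640 to 9504 FPKM. Rpl22l1 had 285 to 1583 FPKM and Rpl22 534 to 2327 FPKM. Rpl22l1 was lower in TSC than in iPSC alone (396 and 403 against 810 and 944 FPKM, log2 difference -1.13 ± 0.34, limma adjusted p = 0.0206), as was Rpl22 (log2 difference -0.90 ± 0.26, limma adjusted p = 0.0169). After assembly in TSC, Rpl22 rose while the difference of Rpl22l1, 0.88 ± 0.34, did not pass (limma adjusted p = 0.0901). Rpl7l1, a nucleolar relative of Rpl7, was lower in TSC alone (43.0 and 41.6 FPKM against 90.8 and 99.8, log2 difference -1.15 ± 0.18, limma adjusted p = 0.000479), while the log2 difference of Rpl7 was -0.20 ± 0.21 and did not pass.

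Members known for roles beyond protein synthesis were also compared. Rpl5 and Rpl11, which with 5S rRNA bind Mdm2 and stabilise p53, had log2 differences of 0.50 ± 0.25 and 0.72 ± 0.22 with assembly in iPSC and 0.57 ± 0.25 and 0.84 ± 0.22 in TSC (limma adjusted p = 0.211, 0.0489, 0.127 and 0.0187). Rps6, the substrate of S6 kinase, had 2169 and 1846 FPKM in the assembled TSC part and 1102 and 1167 in TSC alone, a log2 difference of 0.82 ± 0.23 (limma adjusted p = 0.0251). Rpsa, which is also a laminin receptor, had 1418 and 1395 FPKM against 630 and 755, a log2 difference of 1.03 ± 0.22 (limma adjusted p = 0.00786). Rps4x rose there by 1.17 ± 0.22 on the log2 scale, while the difference of the pseudogene symbol Rps4l, -0.21 ± 0.25, did not pass and its libraries overlapped (limma adjusted p = 0.00445 and 0.618). The difference between the 2 genes was not tested.

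Genes that act with the members did not all move as they did. Rack1, a scaffold on the small subunit, had 2412 and 2611 FPKM in the assembled iPSC part against 1285 and 1208, a log2 difference of 1.01 ± 0.24 (limma adjusted p = 0.021). Of 16 other genes with TOP mRNAs, mostly translation factors, 2 were higher and 4 lower with assembly in iPSC and 7 higher and 3 lower in TSC. Of all genes 2.08% were higher and 9.74% lower in iPSC, and 9.01% higher and 10.2% lower in TSC. Tpt1 rose by 0.82 ± 0.23 and 0.98 ± 0.23 in iPSC and TSC, and Eef2, the elongation factor for translocation, differed by -1.18 ± 0.27 and -0.93 ± 0.27 (limma adjusted p = 0.036, 0.0114, 0.0171 and 0.032). Eef2 had 151 and 128 FPKM in the assembled iPSC part against 348 and 289 in iPSC alone, without overlap.

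Factors that assemble ribosomes moved the other way in iPSC. Of 42 ribosome biogenesis genes, 18 were lower and 0 higher in the assembled iPSC part, with a median log2 difference of -0.72 beside the 9.74% of all genes that were lower. Ppan, a large-subunit assembly factor, had 18.8 and 13.8 FPKM against 94.2 and 109 in iPSC alone, a log2 difference of -2.58 ± 0.33 (limma adjusted p = 0.00434). Ncl, nucleolin, differed by -1.51 ± 0.32 (limma adjusted p = 0.0127). In TSC 4 of the 42 were higher and 2 lower with assembly (median -0.12), against 9.01% and 10.2% of all genes. Between TSC and iPSC alone 1 was higher and 10 lower (median -0.39), against 16.2% and 20.2% of all genes. The lower ones included Dkc1, the pseudouridine synthase of H/ACA RNPs, with a log2 difference of -3.52 ± 0.36 (limma adjusted p = 2.62e-05). Of 12 RNA polymerase I genes, 2 were lower with assembly in iPSC, 3 higher and 1 lower in TSC, and 4 lower in TSC than in iPSC alone. The same shares of all genes stand beside these counts.

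The calls among the regulators on the lists went in both directions. Of 18 mTORC1 and LARP1 genes, 1 was higher and 4 lower with assembly in iPSC and 2 were higher and 2 lower in TSC. Of 9 MYC family genes, 1 was higher in iPSC and 4 were lower in TSC. Of all genes 2.08% were higher and 9.74% lower with assembly in iPSC, and 9.01% higher and 10.2% lower in TSC. Myc, a transcription factor known to act on ribosome genes, had 138 and 112 FPKM in TSC alone and 36 and 52.1 in the assembled TSC part, a log2 difference of -1.50 ± 0.32 (limma adjusted p = 0.0072). It had 21.0 and 30.6 FPKM in iPSC alone, and TSC alone exceeded this by 2.25 ± 0.32 on the log2 scale (limma adjusted p = 0.000201). TSC alone had the highest mean Myc of the 8 groups. Larp1, which binds TOP tracts, was higher in TSC alone by 0.92 ± 0.29 and Mtor differed by -0.86 ± 0.32 (limma adjusted p = 0.0261 and 0.0485).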

How the data were processed

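The deposited table holds FPKM for 31663 entries in 16 libraries, computed by the authors, and all 16 columns were used. TopHat2 and CASAVA, and the builds hg19 and mm9, are named per the submitters' processing notes. Neither the program behind FPKM nor its annotation or strand setting is given in the sources used here. Genes that overlap on opposite strands and near-identical copies may share reads. The number of entries that share a symbol is 12, kept apart.

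A minimum of 1 FPKM in at least 2 libraries left 13406 entries, tested as log2(FPKM + 1) with limma 3.58.1 in R 4.3.3, as 8 group means over 16 libraries with an intensity trend and 8 residual degrees of freedom. The 11 comparisons were two-sided with Benjamini-Hochberg adjustment over all tested genes and a threshold of 0.05. On this scale the fold of low genes is understated. The fit was tested on simulated data. Low values showed steps that gave the relative depth of libraries but no read totals.

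The members and the 12 gene lists were chosen with earlier results of these data known. Named members are up to 5 per direction and comparison with the largest difference among those called, if the higher group's mean reached 5 FPKM. Paralogs with their parents, stalk proteins, Rpsa, Rps6, Rpl5, Rpl11, Rpl38 and Rpl41 were named whatever their result. The members with the largest and smallest SD over groups, or the lowest correlation with the median member, and Myc, Mycn, Larp1, Mtor, Fau, Rack1, Eef1a1, Eef2, Tpt1, Npm1, Ncl and Fbl complete the rule, with up to 3 called members per list. Some genes are not reported here by name. Members listed by their departure from the median member, and those lower under quantile normalization, were chosen after their values were seen.

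The fit was repeated without the filter, with a pseudocount of 0.1, after upper quartile rescaling or quantile normalization, with a replicate block, without the 2 libraries with RNA of the other lineage, and without each library of the groups compared in turn. Leaving out each library of the other groups, which enter the shared estimate of spread, was added after seeing the data. Tables and figures were made with pandas 2.3.3, numpy 2.4.6 and matplotlib 3.10.9 under Python 3.11.15.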

Additional observations from a re-analysis of the deposited data

Results flagged for a closer look

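The effect of assembly differed between TSC and iPSC, by a test of the difference itself, for 2 of 85 members (2.35%), both with the larger effect in TSC, against 3.28% of all genes with a larger and 1.68% with a smaller effect in TSC. For Rpl8 the difference of the effects, TSC minus iPSC, was 0.999 on the log2 scale (SE 0.257, limma adjusted p = 0.0443), with 1368 ± 143 FPKM in the assembled and 899 ± 152 in the lone TSC, and 1366 ± 62.4 in the assembled and 1788 ± 7.63 in the lone iPSC (SD, n = 2). For the pseudogene symbol Rps12l1 it was 1.47 (SE 0.33, limma adjusted p = 0.0261). Both calls were lost after upper quartile rescaling, while 9 members passed after quantile normalization.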

How the results depend on the processing

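None of the 69 differences of named members reversed direction under the alternatives run, and 22 kept their call in all of them, single libraries being left out only from the groups compared. The call was lost in 4 with a pseudocount of 0.1, 35 without the filter, 14 after quantile normalization, 8 after upper quartile rescaling, 11 with the replicate block and 21 without the 2 libraries that hold RNA of the other lineage. The counts of called members that moved by over 1.5 times follow, and their cause was not tested. The number of all genes called also changed in most of these settings.

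Without the filter on low values, the count was 28 (of 45) for TSC against iPSC alone, 4 (of 7) between the assembled parts, 3 (of 29) for assembly in iPSC, 38 (of 68) for assembly in TSC, 2 (of 13) for BMP4 in TSC alone, 0 (of 3) for assembly in iPSC with BMP4 and 1 (of 2) for the interaction. Quantile normalization gave 15 between the assembled parts, 15 for assembly in iPSC, 29 for BMP4 in TSC alone, 9 for assembly in iPSC with BMP4 and 9 for the interaction, and upper quartile rescaling 20, 51, 8, 7 and 0. A pseudocount of 0.1 left 1 for assembly in iPSC with BMP4.

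Over the comparisons, the deviations of same-numbered libraries correlated by -0.02 to -0.18. With a single replicate difference per group, this cannot settle whether those libraries were paired. With the replicate block, 38 members were called for TSC against iPSC alone, 7 between the assembled parts, 20 and 65 for assembly in iPSC and TSC, 7 for BMP4 in TSC alone and 1 for the interaction. Without the 2 libraries that hold RNA of the other lineage, 39, 6, 21, 38, 10 and 2 were called in the same order, and 3 for assembly in iPSC with BMP4, which were then 0 higher and 3 lower in place of 1 and 2. Leaving out 1 library of the groups compared gave 21 to 33 for TSC against iPSC alone, 2 to 7 between the assembled parts, 0 to 2 for assembly in iPSC, 33 to 58 for assembly in TSC, 0 to 68 for BMP4 in TSC alone, 0 to 1 for BMP4 in the assembled iPSC part, 0 to 2 for assembly in iPSC with BMP4, 0 to 10 for assembly in TSC with BMP4 and 0 to 2 for the interaction. Leaving out 1 library of another group, chosen after seeing the data, gave 37 to 64, 6 to 20, 20 to 49, 61 to 73, 7 to 11, 0 to 0, 0 to 17, 0 to 0 and 1 to 3 in the same order, with the highest values without a library of TSC alone with BMP4 (for the interaction also without one of the assembled iPSC part with BMP4), except for BMP4 in TSC alone, where they came without a library of the assembled iPSC part with BMP4. Read depth is known only relative to 1 library, which limits low values such as those of Rpl3l, Rpl10l and Rpl39l.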

Other observations

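Genes of oxidative phosphorylation, the nuclear-encoded subunits of the respiratory chain and ATP synthase, had a median log2 difference of 0.62 with assembly in iPSC and 0.23 in TSC. Of 50 tested, limma called 7 higher and 0 lower in iPSC and 3 higher and 0 lower in TSC. Of all genes 2.08% were higher and 9.74% lower in iPSC, and 9.01% higher and 10.2% lower in TSC. Between TSC and iPSC alone 13 were higher and 1 lower in TSC, where the ribosomal protein genes were mostly lower. Of all genes 16.2% were higher and 20.2% lower there. Of 31 proteasome core genes, 0 were higher and 5 lower with assembly in iPSC (median 0.10), 0 higher and 4 lower in TSC (median -0.01) and 0 higher and 3 lower in TSC than in iPSC alone (median -0.02). The same shares of all genes stand beside these counts.

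Members with a pyrimidine tract within 5 bases of an annotated start and members without one were set side by side. For TSC against iPSC alone the median log2 difference was -0.71 over the 29 with a tract and -0.68 over the 31 without one that were tested. With assembly it was 0.64 and 0.72 in iPSC and 1.06 and 1.10 in TSC, and with BMP4 in TSC alone 0.66 and 0.65.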
